A study of Homo sapiens with 22 samples.

Results

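RNA-Seq of total RNA from LN308 cells treated with tunicamycin for 2 h was compared with RNA-Seq of untreated LN308 cells. LN308 is an established human glial line derived from an astrocytoma and described in the labels as lacking p53. Both groups carried these features and no other genetic change was named. The tunicamycin group (2.5 µg/ml for 2 h) and the untreated group (0 h) had 3 libraries each, chosen by their labels, so that 6 of the 22 libraries of the series are described here. The other libraries of the same assay, tunicamycin at 6 h (3 libraries) and thapsigargin at 200 nM (1 library at 2 h and 1 at 6 h), and the matching ribosome footprint libraries were used only where named. The protocol names a DMSO control, while the 0 h libraries are labelled untreated, and no 2 h vehicle control was used here. Whether the replicates were grown separately is not stated, and every p-value then reflects spread among these libraries that may be technical.

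Tunicamycin blocks DPAGT1, the enzyme that starts the assembly of the lipid-linked sugar precursor of N-linked glycosylation in the endoplasmic reticulum (ER). Secretory proteins that lack their glycans fold poorly, and the unfolded protein response (UPR) is known to read this state through 3 ER membrane sensors. ATF6 is cut to release a transcription factor, IRE1 splices the mRNA of XBP1, and PERK (EIF2AK3) phosphorylates eIF2, which slows translation while it favours translation of ATF4. The 3 branches share targets: ER chaperones and ER-associated degradation (ERAD) for ATF6 and XBP1, and amino acid supply, redox and growth arrest genes for ATF4.

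Each library held 101.4 to 138.2 M counts (M, mega). Untreated replicate 1 stood apart: 53489 genes had at least 1 count there against 38559 to 40331 in the other 5 libraries, and 68.7% of 399 olfactory receptor genes, normally silent in glia, had at least 10 counts against 3.51% to 5.01%. Tunicamycin replicate 1 stood apart in another way, with 0.443% of its counts on the 13 mitochondrially encoded mRNAs against 1.06% to 1.61% in the other 5. The share was likewise 0.479% in replicate 1 at 6 h, against 1.30% and 1.39% in the other 6 h libraries, and 0.587% and 0.492% in the thapsigargin libraries, which are also numbered replicate 1. In a chi-square test of counts over genes, divided by its degrees of freedom, replicates 2 and 3 differed by 45.1 (untreated) and 52.3 (tunicamycin), and pairs with replicate 1 by 417 to 543. The genes that the results turn on are therefore given over all libraries and in replicates 2 and 3 alone. Levels are CPM (counts per M library counts, scaled by trimmed mean of M-values), fold changes are log2 values ± SE, and a gene was called at an edgeR adjusted p under 0.05. The scaling factor was 1.46 in untreated replicate 1 and 0.978 to 1.06 in the other 5 libraries. A higher factor lowers the CPM of every gene of its library, so it enters each comparison of treated with untreated replicate 1.

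Markers of the line gave a mixed picture. VIM and NES, intermediate filament genes of astrocytes and neural progenitors, lay between 241 and 1664 CPM, S100B between 148 and 311 CPM and CD44 between 340.5 and 1427 CPM, while GFAP, the astrocyte filament gene, lay at 1.16 to 1.78 CPM. The glial genes AQP4, SLC1A2, SOX9 and CHI3L1 were under 1 CPM in all 6 libraries. The 14 glial and glioma markers summed to 1516 to 4405 CPM in untreated and 3393 to 4155 CPM in tunicamycin libraries, and none was called over all libraries (edgeR 0 and DESeq2 0, with 3 members lower at an unadjusted p under 0.05). Of 10 blood cell markers 8 were under 1 CPM in all 6 libraries, with sums of 2.97 to 5.12 CPM untreated and 2.07 to 3.46 CPM treated. Epithelial markers (9 genes, 62.3 to 72.4 CPM untreated and 60.7 to 87.2 CPM treated), endothelial markers (6 genes, 2.21 to 6.55 and 1.67 to 3.04 CPM) and neuronal markers (8 genes, 84.2 to 115.9 and 99.1 to 109.4 CPM) had no called member by edgeR or DESeq2. Lower at an unadjusted p under 0.05 over all libraries were 2 blood, 1 epithelial, 0 endothelial and 2 neuronal markers, beside 6.69% of all tested genes. Tested in replicates 2 and 3 alone were 11 glial, 7 neuronal, 5 blood, 5 epithelial and 5 endothelial markers. Of these 1 glial marker was called higher there and 0 of any list lower, beside 2.67% and 1.73% of all genes tested in that fit. ALDH1L1 (glial) measured 1.16, 0.0242 and 0.02 CPM in untreated replicates 1, 2 and 3, and GRIN1 (neuronal) 1.27, 0.121 and 0.15 CPM.

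HERPUD1 was the known UPR gene that rose after 2 h in the fit of all libraries. It encodes an ER membrane protein of the HRD1 degradation complex. Its level was 36.7, 42.4 and 42.6 CPM in untreated replicates 1, 2 and 3 and 226, 312 and 296 CPM after tunicamycin, so that the lowest treated library lay far above the highest untreated one. The log2 fold change was 2.77 ± 0.23 (edgeR adjusted p = 0.00355), and 2.86 in replicates 2 and 3 alone (edgeR adjusted p = 8.99e-06). In this bulk RNA, fewer or more cells of a type and less or more RNA per cell cannot be told apart.

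Besides HERPUD1, 3 entries rose. The MIR616 locus went from 0.517, 0.839 and 0.48 CPM to 6.65, 5.75 and 4.98 CPM (3.24 ± 0.30, edgeR adjusted p = 0.00534). The entries without a symbol, ENSG00000261270 (1.06, 1.33 and 1.36 to 9.16, 12.4 and 16.0 CPM, 3.32 ± 0.29, edgeR adjusted p = 0.00425) and ENSG00000261114 (0.472, 0.662 and 0.77 to 6.26, 7.54 and 7.84 CPM, 3.51 ± 0.29, edgeR adjusted p = 0.00355), rose by similar amounts. In all 4 the groups did not overlap in any library. Replicates 2 and 3 alone gave 3.03 for MIR616 (edgeR adjusted p = 0.000793), 3.41 for ENSG00000261270 and 3.45 for ENSG00000261114. MIR616 and ENSG00000261270 were not called when only the 6 compared libraries were fitted (edgeR adjusted p = 0.114 and 0.0575). These 4 were 0.00973% of the 41130 genes tested by edgeR, and 0 genes were called lower. At an unadjusted p under 0.05 stood 565 higher genes (1.37%) and 2750 lower genes (6.69%), and DESeq2 called 50 higher (0.164% of the 30416 genes it gave an adjusted p) and 17 lower (0.0559%). Non-overlapping levels were found for 1413 higher genes (3.44% of those tested) and 2419 lower genes (5.88%). The surplus of lower genes lay mainly at low counts. Of the 21009 tested genes whose mean count reached 50, 457 were higher and 582 lower at an unadjusted p under 0.05. Without overlap, 1153 of them were higher and 725 lower.

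MIR616 lies within the span of DDIT3 on chromosome 12 in RefSeq (MIR616 at chr12:57519163-57519259, DDIT3 at chr12:57516588-57520517, GRCh38.p14). The counts are reads of total RNA at this locus and not of mature miRNA, and no source used here states the strand setting or how overlaps were handled, so reads of MIR616 and of unspliced DDIT3 cannot be told apart. The 2 mature forms from RefSeq are shown because MIR616 was 1 of the 4 called entries, with the seed (bases 2 to 8 from the 5′ end) in capitals. The seeds differ.
hsa-miR-616-3p: aGUCAUUGgaggguuugagcag
hsa-miR-616-5p: aCUCAAAAcccuucagugacuu

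DDIT3 itself, which encodes the transcription factor CHOP of the PERK branch, went from 11.8, 13.6 and 8.25 CPM to 127, 95.1 and 60.3 CPM. All 3 treated libraries were above all untreated ones, and replicate 1 had the highest treated level. Its log2 fold change of 3.07 ± 0.47 did not pass over all libraries (edgeR adjusted p = 0.221). It passed by DESeq2 (adjusted p = 1.69e-07) and in replicates 2 and 3 alone (2.85, edgeR adjusted p = 0.0111).

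CHAC1, a glutathione-degrading enzyme induced by ATF4, had the highest fold change among the 30 PERK-ATF4 target genes. It measured 1.13, 6.35 and 4.81 CPM in untreated and 34.5, 71.3 and 69.6 CPM in treated libraries, a log2 fold change of 3.84 ± 0.56 (edgeR adjusted p = 0.203). Both replicate 1 libraries were the lowest of their group. Replicates 2 and 3 alone gave 3.67 (edgeR adjusted p = 8.99e-06), and DESeq2 called it over all libraries (adjusted p = 2.73e-10).

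**Figure D1:**
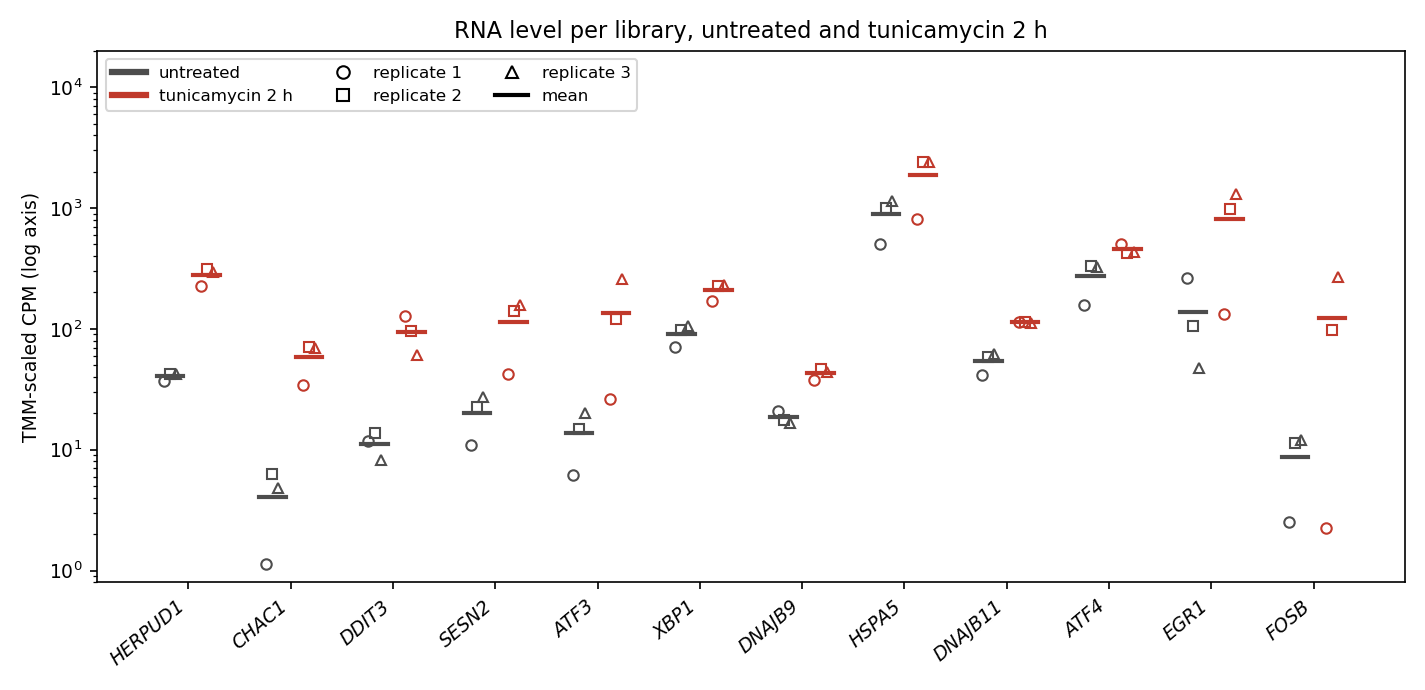
TMM-scaled CPM (log axis) of 12 genes in each untreated (grey) and tunicamycin 2 h (red) library, with symbols for replicates and bars for means of 3. HERPUD1 was separate in every library (36.7 to 42.6 against 226 to 312 CPM), while EGR1 and FOSB were high in treated replicates 2 and 3 and not in replicate 1.

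The fit of replicates 2 and 3 alone called 769 genes higher (2.67% of 28828 tested) and 500 lower (1.73%), of which 400 and 167 changed at least 2-fold. It held 6 libraries, replicates 2 and 3 of the untreated, 2 h and 6 h tunicamycin groups, so its spread rests in part on the 6 h libraries. The biological coefficient of variation was 0.129 there and 0.506 over all libraries. Leaving out untreated replicate 1 alone gave 4 higher and 0 lower calls, and leaving out tunicamycin 2 h replicate 1 alone gave 7 and 0. The 4 genes called over all libraries were among the 769. Replicate 1 was not used in that fit and can be set beside it: of the 769 genes 373 (48.5%) were higher in tunicamycin replicate 1 than in untreated replicate 1, against 54.4% of all 28828 genes. Of the 500 lower genes 156 (31.2%) were lower in replicate 1, against 45.6% of all genes. As a set these calls were thus not found again in replicate 1, and the main counts from replicates 2 and 3 below are given with it. The part that the low reads of untreated replicate 1 and the low mitochondrial share of tunicamycin replicate 1 have in this was not tested. Nor was that of the scaling factor of untreated replicate 1.

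The 25 pathway lists held 521 different tested genes. Over all libraries edgeR called 1 of them (HERPUD1) and DESeq2 called 11, each of them higher: HERPUD1, DNAJB9, DNAJB11, XBP1, DDIT3, ATF3, CHAC1, SESN2, CTH, EGR2 and KLF10. In replicates 2 and 3 alone 64 of the 521 rose and 11 fell, and each of the 11 was higher in treated than in untreated replicate 1. Directions in replicate 1, here and below, depend on the scaling of untreated replicate 1 (factor 1.46), whose part in them was not tested. Medians of lists below are to be read beside the median of all tested genes, -0.17, and that of the 21009 tested genes whose mean count reached 50, which was 0.09. Of those 21009 genes 12742 had a positive log2 fold change over all libraries. In replicates 2 and 3 alone their median was 0.002, and untreated replicate 1 lay at -0.19 against the untreated mean. Counts of list members without overlap are to be read beside 3.44% (higher) and 5.88% (lower) of all tested genes. Among the 21009 genes 1153 were higher and 725 lower without overlap.

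Among the 15 UPR sensors and transcription factors, XBP1, the target of IRE1 splicing, led with 70.2, 97.9 and 105 CPM untreated and 169.6, 224 and 232 CPM treated. The log2 fold change was 1.20 ± 0.25 (edgeR adjusted p = 0.548, DESeq2 0.000463), and the groups did not overlap. EIF2AK3, the PERK kinase itself, measured 21.1, 25.0 and 27.1 against 33.4, 45.1 and 52.3 CPM (0.84 ± 0.23). ATF4 measured 158, 332 and 326 against 508, 427 and 436 CPM (0.75 ± 0.29), and NFE2L2, the antioxidant regulator NRF2 that PERK is known to act on, 68.7, 115 and 118 against 134, 171 and 182 CPM. In these 4 genes every treated library lay above every untreated one, and the 4 rose in replicates 2 and 3 alone (XBP1 1.19, EIF2AK3 0.92, NFE2L2 0.62 and ATF4 0.41), while TRAF2, an adaptor bound by IRE1, fell there by 0.53. The edgeR count over all libraries was 0 of 15, with 4 higher and 0 lower at an unadjusted p under 0.05, and the median was 0.17. The gene-level counts do not separate spliced from unspliced XBP1.

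Among ER chaperones and folding enzymes the smallest p-values belonged to co-chaperones of BiP. DNAJB9 (ERdj4), which binds IRE1 and BiP clients, measured 21.1, 17.6 and 16.8 CPM untreated and 37.9, 46.7 and 43.5 CPM treated (1.21 ± 0.22, edgeR adjusted p = 0.533, DESeq2 6.02e-05). DNAJB11 (ERdj3) measured 41.6, 58.8 and 61.4 against 115, 113 and 112 CPM (1.07 ± 0.23, edgeR adjusted p = 0.548, DESeq2 0.000567). Neither gene overlapped between groups. HSPA5, which encodes BiP, the main Hsp70 of the ER, overlapped: it measured 505, 1008 and 1141 CPM untreated and 812, 2397 and 2419 CPM treated. Treated replicate 1 lay below untreated replicates 2 and 3 (1.08 ± 0.47, edgeR adjusted p = 0.548).

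In replicates 2 and 3 alone 5 of the 29 chaperone genes rose and 0 fell (HSPA5 1.18, DNAJB9 1.41, DNAJB11 0.92, SDF2L1 0.72 and MANF 0.47), and all 5 were higher in replicate 1 too. Of all 29 members, called or not, 23 were higher in treated than in untreated replicate 1, so replicate 1 is a weak check here. SDF2L1 is an ER co-chaperone of BiP and MANF a secreted ER stress protein. HSP90B1 (GRP94) and HYOU1 (GRP170) had non-overlapping levels with fold changes of 0.46 ± 0.26 and 0.48 ± 0.24 that passed in neither fit. Over all libraries the list median was 0.31, 9 of 29 members had non-overlapping higher levels, and edgeR called 0 (5 higher and 0 lower at an unadjusted p under 0.05), DESeq2 2.

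HSPA5-DT, a long noncoding RNA divergent from HSPA5 with 312 bases between the 2 RefSeq spans, was next after the called genes. It measured 0.432, 0.404 and 0.53 CPM untreated and 1.68, 2.76 and 3.65 CPM treated, without overlap (2.57 ± 0.33, edgeR adjusted p = 0.0764, DESeq2 1.16e-10). It rose by 2.80 in replicates 2 and 3 alone (edgeR adjusted p = 0.000783).

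Of the 24 ERAD genes HERPUD1 alone was called over all libraries, and the median of the list was 0.27 (0.07 in replicates 2 and 3). In replicates 2 and 3 SYVN1, the HRD1 ubiquitin ligase, also rose (0.44), though it was lower in treated than untreated replicate 1 (33.4 against 34.9 CPM). SEL1L, the partner of HRD1, measured 119.6, 151 and 159 against 188, 204 and 197 CPM, a non-overlapping difference of 0.45 ± 0.22 that was called in neither fit.

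The promoters of HERPUD1, HSPA5 and XBP1 are shown because they carry the ER stress response element (ERSE, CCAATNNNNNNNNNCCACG) or its shorter variant ERSE-II (the longer run of capitals in HERPUD1), known as sites of ATF6 and XBP1 with the factor NF-Y. That of CHAC1 is shown for the ATF4-C/EBP composite element (TGATGNAA), known as a site of ATF4. The sequences are the 250 bases before the RefSeq start (GRCh38.p14), 5′ to 3′ on the gene's strand, with matches to these motifs on either strand in capitals.
HERPUD1, chr16:56931892-56932141, plus strand: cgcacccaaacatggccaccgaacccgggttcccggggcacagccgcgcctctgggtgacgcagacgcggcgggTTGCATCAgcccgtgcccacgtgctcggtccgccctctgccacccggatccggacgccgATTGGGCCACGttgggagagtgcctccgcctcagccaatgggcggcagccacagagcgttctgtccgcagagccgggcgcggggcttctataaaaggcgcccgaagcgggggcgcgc
HSPA5, chr9:125241344-125241593, minus strand: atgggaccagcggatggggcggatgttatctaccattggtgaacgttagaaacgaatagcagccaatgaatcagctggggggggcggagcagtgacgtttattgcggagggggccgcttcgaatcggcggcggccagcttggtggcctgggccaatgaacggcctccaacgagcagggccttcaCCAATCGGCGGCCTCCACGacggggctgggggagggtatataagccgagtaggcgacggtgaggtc
XBP1, chr22:28800570-28800819, minus strand: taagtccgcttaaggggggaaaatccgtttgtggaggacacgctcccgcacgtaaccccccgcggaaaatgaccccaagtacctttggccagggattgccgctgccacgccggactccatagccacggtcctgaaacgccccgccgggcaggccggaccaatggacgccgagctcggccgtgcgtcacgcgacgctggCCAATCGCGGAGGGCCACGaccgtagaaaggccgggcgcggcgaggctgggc
CHAC1, chr15:40953221-40953470, plus strand: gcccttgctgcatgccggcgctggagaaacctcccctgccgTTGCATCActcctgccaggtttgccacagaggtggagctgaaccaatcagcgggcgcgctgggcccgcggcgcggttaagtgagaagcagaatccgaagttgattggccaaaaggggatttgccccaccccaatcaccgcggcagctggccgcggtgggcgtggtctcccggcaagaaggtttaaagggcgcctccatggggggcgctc

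HERPUD1 held 1 ERSE-II and 1 composite match, HSPA5 and XBP1 1 ERSE each, and CHAC1 a composite match with the same 8 letters as that of HERPUD1. Among 35116 RefSeq windows of 250 bases 0.0740% held an ERSE, 0.0513% an ERSE-II and 3.14% a composite match, with CCAAT, which lies within ERSE and ERSE-II, in 32.0%. Of the pathway genes 12 had an ERSE or ERSE-II match (ALG12, CALR, CANX, CRELD2, ERO1B, HERPUD1, HSP90B1, HSPA5, HYOU1, PDIA6, SDF2L1 and XBP1). Their log2 fold changes ran from 0.17 (ALG12) to 2.77 (HERPUD1) with a median of 0.44, and 4 of the 12 (HERPUD1, HSPA5, SDF2L1 and XBP1) rose in replicates 2 and 3. A match was therefore found both in genes called at 2 h and in genes that were not. Among PERK-ATF4 target genes 24 had a window, 6 of them (25.0%) with a composite match, and these 6 had a median of 0.86 against 0.73 in the other 18. A match is a description of letters and not of a bound site.

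Of the 30 PERK-ATF4 target genes 25 had a positive log2 fold change, the median was 0.70, and 10 of 30 had non-overlapping higher levels. SESN2, an mTORC1 inhibitor, measured 10.9, 22.4 and 27.2 against 42.0, 141 and 158 CPM (2.50 ± 0.50, edgeR adjusted p = 0.548, DESeq2 0.000384). ATF3, a stress transcription factor that is also an immediate early gene, measured 6.2, 14.8 and 20.1 against 26.2, 121 and 256 CPM (3.29 ± 0.70, edgeR adjusted p = 0.548, DESeq2 0.00032). In both genes replicate 1 had the lowest level of each group, and the treated minimum still lay above the untreated maximum.

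TRIB3, a pseudokinase that binds AKT and ATF4, had a smaller difference at this time, with 22.5, 45.9 and 41.6 against 52.6, 99.5 and 80.5 CPM (1.08 ± 0.32). CTH, the transsulfuration enzyme that makes cysteine, measured 4.75, 2.63 and 3.34 against 6.05, 10.8 and 11.1 CPM (1.38 ± 0.31, edgeR adjusted p = 0.548). PPP1R15A (GADD34), the phosphatase subunit that reverses eIF2 phosphorylation, overlapped, with 19.5, 151 and 177 against 108, 246 and 269 CPM (0.84 ± 0.63). Untreated replicate 1 held the lowest value of PPP1R15A by far.

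Replicates 2 and 3 alone called 15 of the 29 PERK-ATF4 targets tested there as higher and 0 as lower. Of the 15, 9 were higher in treated than in untreated replicate 1 (DDIT3, ATF3, TRIB3, CHAC1, SESN2, PPP1R15A, VEGFA, CTH and ASNS) and 6 were lower (CEBPB, ADM2, INHBE, GDF15, VLDLR and BBC3). Of all 30 members, called or not, 21 were higher in replicate 1. VEGFA is an angiogenic factor, ASNS asparagine synthetase, and BBC3 (PUMA) a BH3-only death inducer. Over all libraries edgeR called 0 of 30, with 9 higher and 0 lower at an unadjusted p under 0.05, and DESeq2 called 5.

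**Figure D2:**
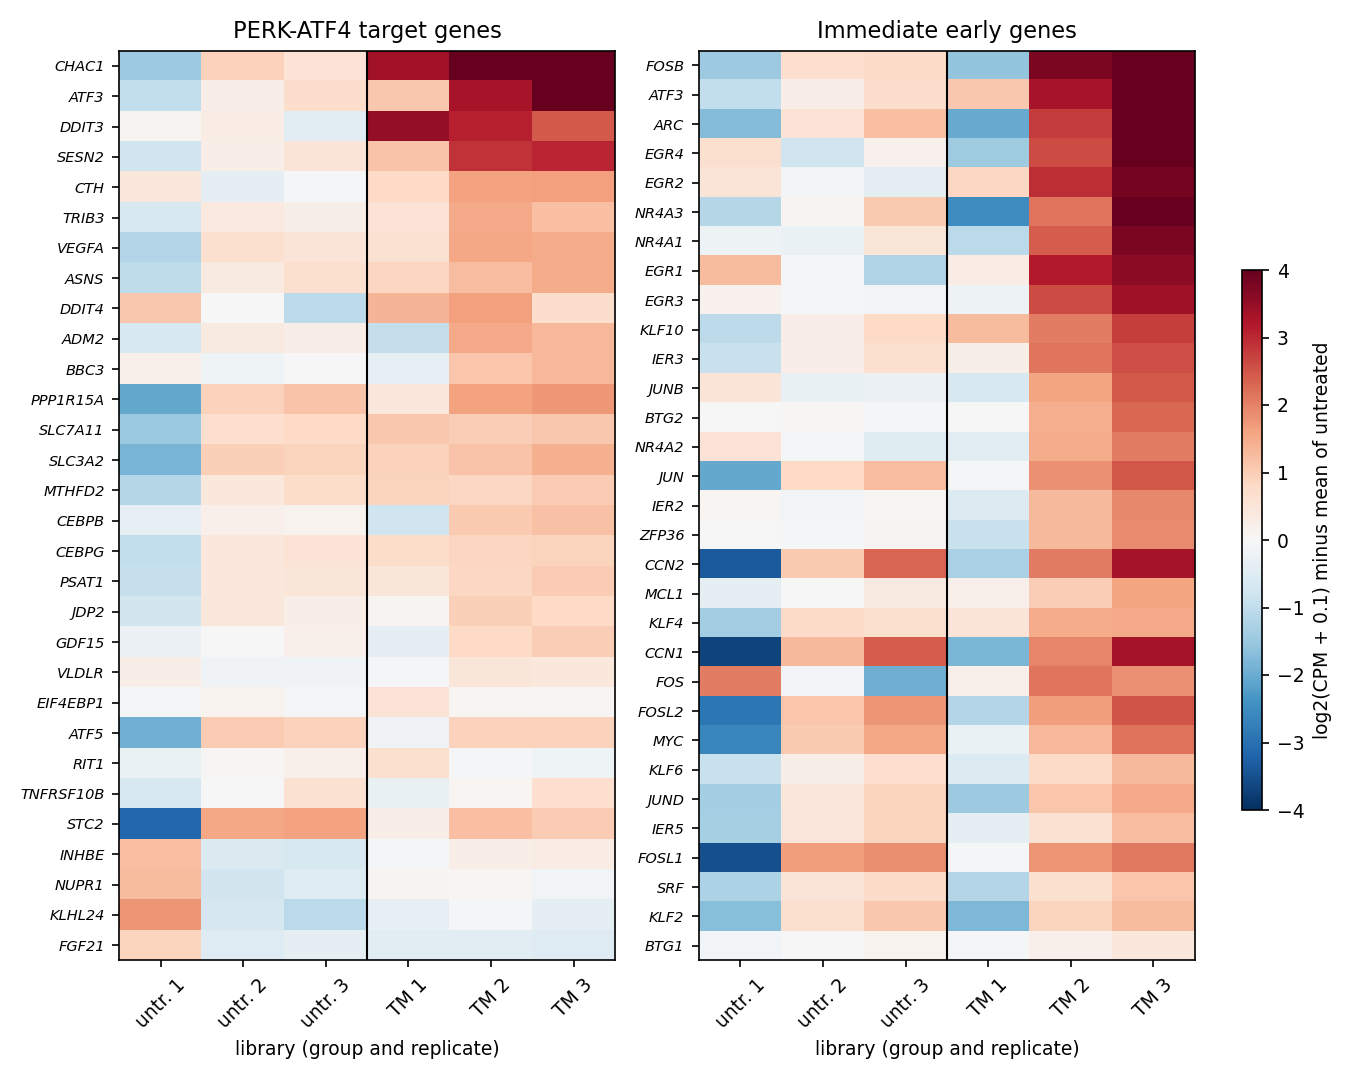
Heat map of log2(CPM + 0.1) minus the untreated mean for the 30 PERK-ATF4 target genes (left) and the 31 immediate early genes (right) in each untreated (untr.) and tunicamycin 2 h (TM) library, with genes ordered by fitted fold change and colours clipped at 4. CHAC1, ATF3, DDIT3 and SESN2 were above the untreated mean in all 3 treated libraries, while most immediate early genes were so in treated replicates 2 and 3 only.

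Many genes of amino acid supply are also known as ATF4 targets. Of 23 genes of amino acid synthesis and transport 18 were positive, the median was 0.37 and 8 had non-overlapping higher levels. ASNS measured 37.1, 98.3 and 119 against 138, 178 and 211 CPM (1.05 ± 0.38), and SLC38A2, the neutral amino acid transporter SNAT2, 486, 691 and 681 against 1042, 993 and 1132 CPM (0.77 ± 0.24). In replicates 2 and 3 alone 5 rose (ASNS, PSPH, GOT1, CTH and SLC38A2), all 5 higher in replicate 1 too, and SLC36A1, a lysosomal transporter, fell by 0.45. Of all 23 members, called or not, 18 were higher in treated than in untreated replicate 1, so replicate 1 is a weak check here. By edgeR over all libraries 0 were called (7 higher and 1 lower at an unadjusted p under 0.05), and by DESeq2 1.

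Among cytosolic tRNA synthetases, which charge tRNAs with amino acids, 19 of 20 were positive, the median was 0.36 and 10 of 20 did not overlap. The list median was 0.12 in replicates 2 and 3 alone, and untreated replicate 1 lay at -0.39 against the untreated mean. CARS1, the cysteinyl-tRNA synthetase, measured 37.5, 63.1 and 73.3 against 84.7, 107 and 123 CPM (0.85 ± 0.27), and it and GARS1 (0.46) were the 2 members that rose in replicates 2 and 3. Their edgeR and DESeq2 counts over all libraries were 0 (1 higher and 0 lower at an unadjusted p under 0.05). One-carbon and folate metabolism (19 genes) had a median of 0.18 over all libraries and 0.06 in replicates 2 and 3. There 1 member rose and 1 fell, MAT2A, which makes S-adenosylmethionine (-0.45). Over all libraries this list had 0 calls by edgeR or DESeq2 (0 higher and 1 lower at an unadjusted p under 0.05). MTHFD2, its mitochondrial dehydrogenase known as an ATF4 target, measured 44.5, 134 and 163 against 183, 175 and 202 CPM, a difference of 0.71 ± 0.39 with untreated replicate 1 far below the other libraries, and of 0.36 in replicates 2 and 3 (edgeR adjusted p = 0.197).

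Of 14 mRNAs with regulatory upstream reading frames, which are known to stay translated when eIF2 is phosphorylated, 5 rose in replicates 2 and 3 (ATF4, DDIT3, PPP1R15A, CEBPB and IFRD1), 4 of them higher in replicate 1 too. Of all 14, called or not, 12 were higher in replicate 1. The median over all libraries was 0.47 (edgeR 0 called, DESeq2 1, and 4 higher and 1 lower at an unadjusted p under 0.05). In replicates 2 and 3 it was 0.17. The 11 eIF2 kinases and phosphatase subunits had a median of 0.26 over all libraries and -0.04 in replicates 2 and 3, where EIF2AK3 and PPP1R15A rose (edgeR and DESeq2 0 called over all libraries, with 2 higher and 0 lower at an unadjusted p under 0.05).

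Immediate early genes respond first to growth signals and stress, and many, but not all, of those listed encode transcription factors. They had the highest median of the 25 lists, 1.21, and all 31 were positive in the fit of all libraries. The libraries differed in this: against the untreated mean the list median was -0.43 in treated replicate 1, 1.77 in replicate 2 and 2.47 in replicate 3. FOSB, a partner of JUN in AP-1, measured 2.51, 11.4 and 12.1 CPM untreated and 2.27, 97.1 and 267 CPM treated. EGR1 measured 262, 105 and 47.0 against 134, 977 and 1313 CPM, and NR4A1, an orphan nuclear receptor, 41.3, 39.0 and 66.0 against 22.2, 256 and 645 CPM. FOSB, EGR1 and NR4A1 were lower in treated than in untreated replicate 1, and each rose in replicates 2 and 3 alone (3.97, 3.93 and 3.11).

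Among immediate early genes 3 did not overlap: ATF3, EGR2 and KLF10. EGR2 measured 13.1, 8.61 and 6.95 against 16.5, 72.8 and 133 CPM (2.96 ± 0.61, edgeR adjusted p = 0.548, DESeq2 0.000952). KLF10, a factor of the TGF-beta response, measured 28.0, 69.2 and 100.3 against 139.6, 238 and 395 CPM (1.97 ± 0.47, edgeR adjusted p = 0.548, DESeq2 0.0157). Both rose in replicates 2 and 3 alone (EGR2 3.74 and KLF10 1.92, edgeR adjusted p = 0.0151 and 0.0219). In replicates 2 and 3 alone 16 of 31 rose and 0 fell, and 7 of those 16 were higher in replicate 1 (16 of all 31 members were). The edgeR count over all libraries was 0, with 15 higher and 0 lower at an unadjusted p under 0.05, and DESeq2 called 3.

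BHLHE40, a repressor of the circadian and stress programmes, was not on a list and had non-overlapping levels (59.9, 75.6 and 57.9 against 90.3, 283 and 430.0 CPM, 2.05 ± 0.45, edgeR adjusted p = 0.548, DESeq2 0.00723). SLC4A5, a sodium bicarbonate cotransporter, measured 1.29, 1.37 and 1.60 against 2.64, 6.44 and 8 CPM (2.00 ± 0.42, edgeR adjusted p = 0.548, DESeq2 0.00281). In both genes treated replicate 1 was the lowest treated library and still above the untreated ones, and both rose in replicates 2 and 3 alone (BHLHE40 2.43 and SLC4A5 2.30, edgeR adjusted p = 0.00197 and 0.000783).

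MAPK feedback and NF-kB feedback genes are known to be induced by the same kinds of signal. Of 17 MAPK feedback regulators 13 were positive (median 0.41), and in replicates 2 and 3 3 rose (1 of them higher in replicate 1 too) and 1 fell. DUSP6, the phosphatase of ERK, was not among them. It measured 119, 85.4 and 150.2 against 213, 197 and 319 CPM (1.04 ± 0.28, edgeR adjusted p = 0.548). In replicates 2 and 3 alone its fold change was 1.14 (edgeR adjusted p = 0.171). Of 22 cytokine and NF-kB feedback genes 13 were positive (median 0.15), and in replicates 2 and 3 NFKBIA (1.09) and NFKBIZ (0.96) rose while BIRC3 fell by 0.97. Of these, NFKBIA alone went the same way in replicate 1. The treated library medians of the cytokine list were -0.53, 0.70 and 1.34, in the order of the replicates. Neither list had a call over all libraries by edgeR or DESeq2 (3 and 0 higher, 0 lower, at an unadjusted p under 0.05).

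**Figure D3:**
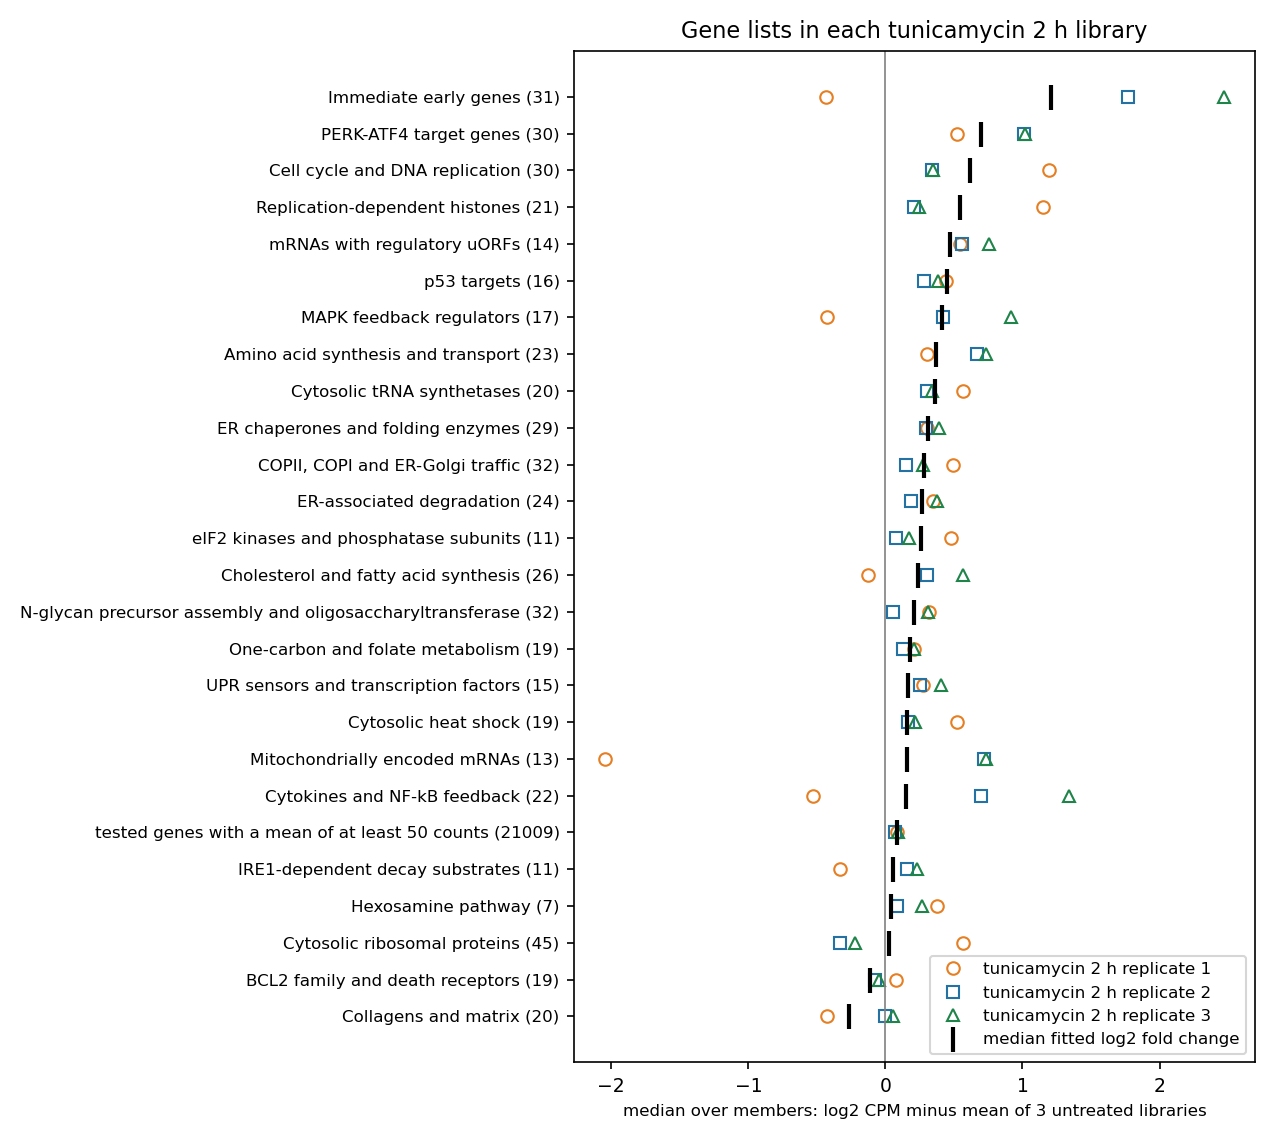
Median of each pathway list (number of tested genes in brackets) in each tunicamycin 2 h library, as log2 CPM minus the mean of the 3 untreated libraries, with the median fitted log2 fold change as a bar. Replicate 1 (circles) lay apart from replicates 2 and 3 for immediate early genes (-0.43 against 1.77 and 2.47), mitochondrially encoded mRNAs (-2.04 against 0.72 and 0.73) and cell cycle genes (1.19 against 0.34 and 0.35).

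The pathway that tunicamycin blocks showed no called change. DPAGT1, its target, measured 18.6, 30.2 and 29.8 against 30.0, 27.6 and 33.0 CPM (0.21 ± 0.23, edgeR adjusted p = 0.724), with overlap. Of 32 genes of N-glycan precursor assembly and the oligosaccharyltransferase 0 were called in either fit or by DESeq2, and 0 of 32 had an unadjusted p under 0.05 over all libraries (2 in replicates 2 and 3), with medians of 0.21 and 0.07. The 7 hexosamine genes (median 0.04) and the 32 genes of COPII, COPI and ER-Golgi traffic (median 0.29) also had 0 calls by edgeR in either fit and by DESeq2. Their medians in replicates 2 and 3 were -0.22 and 0.02. At an unadjusted p under 0.05 over all libraries these 2 lists held 0 and 1 higher genes. Among the 11 reported substrates of IRE1-dependent decay 0 were called by edgeR in either fit or by DESeq2 (0 over all libraries at an unadjusted p under 0.05), and SPARC, a matrix glycoprotein among them, measured 1270.4, 1647 and 1759.8 against 1576, 1796 and 1982 CPM (0.20 ± 0.23).

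Cholesterol and fatty acid synthesis held 7 genes that rose in replicates 2 and 3, HMGCS1, IDI1, HSD17B7 and STARD4 among them, and 4 of the 7 were higher in replicate 1 (12 of all 26 members were). STARD4, a sterol transfer protein, measured 76.6, 70.3 and 77.4 against 111, 131 and 119 CPM (0.68 ± 0.21), and IDI1, an isomerase of the isoprenoid pathway, 35.8, 34.5 and 41.9 against 63.8, 53.6 and 65.6 CPM (0.71 ± 0.27). These 2 genes and HSD17B7 did not overlap. Over all libraries edgeR and DESeq2 called 0 of 26 (5 higher and 0 lower at an unadjusted p under 0.05; median 0.24).

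Genes of cell death changed in both directions in replicates 2 and 3. There MCL1 (1.14), BBC3 (1.37) and PMAIP1 (0.61) rose, and BOK (-1.01), BCL2L1 (-0.64) and BAK1 (-0.49) fell. MCL1 and PMAIP1 were higher in replicate 1 too, while BBC3 was lower and BOK, BCL2L1 and BAK1 were higher there. Of all 19 members, called or not, 12 were higher in replicate 1. Over all libraries 0 of 19 members of the BCL2 and death receptor list were called by edgeR or DESeq2 (2 higher and 3 lower at an unadjusted p under 0.05). PMAIP1 (NOXA) encodes a BH3-only protein and measured 15.1, 64.4 and 68.6 against 111, 87.6 and 114 CPM. TNFRSF10A, the death receptor DR4, was low throughout, with 0.487, 0.355 and 0.34 against 0.195, 0.143 and 0.149 CPM (-1.28 ± 0.36, edgeR adjusted p = 0.548). Of 16 p53 targets, in a line labelled as lacking p53, 0 were called over all libraries by edgeR or DESeq2 (3 higher at an unadjusted p under 0.05). MDM2, the p53 ubiquitin ligase, measured 175, 217 and 236 against 504, 311 and 381 CPM (0.93 ± 0.26), and rose in replicates 2 and 3 (0.63) with replicate 1 in the same direction. Of the 16 targets 13 were higher in treated than in untreated replicate 1, called or not.

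In several lists replicate 1 lay apart from replicates 2 and 3. Of 30 cell cycle and DNA replication genes 29 were positive (median 0.62), but the treated library medians were 1.19, 0.34 and 0.35, untreated replicate 1 lay at -0.66, and in replicates 2 and 3 the median was 0.07 with 0 higher and 1 lower call (CCND1, -0.58). CDC6, a replication licensing factor, measured 31.8, 82.4 and 68.0 against 174, 96.2 and 94.8 CPM. The 21 replication-dependent histone genes did likewise (median 0.54 over all libraries, -0.01 in replicates 2 and 3). The 45 ribosomal protein genes had a median of 0.03, with 0.57, -0.33 and -0.22 in the 3 treated libraries. In replicates 2 and 3 it was -0.17 with 0 calls. The 13 mitochondrially encoded mRNAs had a median of 0.16, with -2.04, 0.72 and 0.73 in the 3 treated libraries. In replicates 2 and 3 their median was 0.33 with 1 higher call, a gene that was not higher in replicate 1. The 19 cytosolic heat shock genes had medians of 0.16 over all libraries and -0.09 in replicates 2 and 3, where DNAJB1 rose (0.75). The 20 collagen and matrix genes had a median of -0.27, with COL6A3 (-1.06) and COL4A1 (-0.45) lower and VCAN (0.51) higher in replicates 2 and 3. None of these 6 lists had a call over all libraries by edgeR or DESeq2. At an unadjusted p under 0.05 stood 3 cell cycle genes and 1 heat shock gene as higher and 1 collagen or matrix gene as lower, with 0 in the histone, ribosomal and mitochondrial lists.

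No gene fell over all libraries by edgeR. Among genes with non-overlapping levels, an unadjusted p under 0.05 and a mean of at least 50 counts, the 8 lowest fold changes belonged to GSG1L, RNF165, CHRNA4, CFAP74, SLCO2B1, TENM4, CACNA1I and CACNA1A. In each of them untreated replicate 1 was far above the other 5 libraries. CFAP74, a cilium protein gene, measured 14.5 CPM there, 0.161 and 0.23 CPM in untreated replicates 2 and 3, and 0.0624, 0.119 and 0.14 CPM after tunicamycin, and CACNA1A, a neuronal calcium channel gene, 4.81, 0.331 and 0.21 against 0.117, 0.135 and 0.131 CPM. CFAP74 and CACNA1A were not called in replicates 2 and 3 (-0.56 and -1.01, edgeR adjusted p = 0.507 and 0.158).

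PLCXD3, a phospholipase-like gene of low level, was lower in every library without such a gap. It measured 0.879, 0.662 and 0.989 CPM untreated and 0.211, 0.223 and 0.149 CPM treated (-2.11 ± 0.35, edgeR adjusted p = 0.353, DESeq2 0.000384), and fell by 2.10 in replicates 2 and 3 (edgeR adjusted p = 0.00998). Called lower in replicates 2 and 3 and in the fit with replicate number as a term without untreated replicate 1 were 200 genes, with CLEC20A, KCNMA1-AS2, KCNMA1-AS3, PLCXD3, PPP1R17, RPL13AP11, PGAM1P10, CORO2B and THSD1 among the lowest fold changes of those with a symbol and a mean count reaching 50. Both fits rest on untreated replicates 2 and 3 and hold treated replicates 2 and 3. Their overlap is therefore not separate evidence. THSD1, which encodes a membrane protein with a thrombospondin repeat, measured 0.939, 11.2 and 13.3 against 3.52, 3.32 and 3.53 CPM. Untreated replicate 1 was the lowest of its 6 libraries. In THSD1, KCNMA1-AS2, KCNMA1-AS3 and PPP1R17 treated replicate 1 lay above untreated replicate 1 (log2 differences of 1.89, 1.06, 0.24 and 1.05), so that replicate 1 went the other way. CLEC20A, PGAM1P10 and RPL13AP11, also of low level, did not overlap and were lower in treated than in untreated replicate 1 (-2.98, -0.49 and -2.09). CORO2B was lower there too (-2.45), with overlap between groups. By their symbols PGAM1P10 and RPL13AP11 are pseudogenes, whose counts are uncertain because reads of the parent genes can be assigned to them.

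The same 2 fits shared 360 genes called higher (46.8% of 769 and 72.0% of 500), with CHAC1, MIR616, HERPUD1, DDIT3, HSPA5-DT, MTUS2-AS1, OLIG1, MTCYBP3, MTND5P2 and C17orf99 at the highest fold changes under the same conditions. This overlap, too, rests on shared libraries and is not separate evidence. MTUS2-AS1 (0.194, 0.266 and 0.19 against 0.0702, 1.21 and 1.93 CPM) and OLIG1, a glial transcription factor (1.55, 0.17 and 0.04 against 0.164, 0.668 and 0.691 CPM), were higher in treated replicates 2 and 3 and lower in treated than in untreated replicate 1, as was C17orf99 (a log2 difference of -0.85). MTCYBP3 and MTND5P2 are pseudogene copies of mitochondrial genes, whose counts are uncertain because reads of the mitochondrial originals can be assigned to them.

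The 121 genes named by rule were tested against tunicamycin at 6 h in the same fit, which shares the 2 h libraries with the comparison above. At 6 h 12 of the 121 were higher than at 2 h and 0 lower by edgeR (over all tested genes 0.588% were called higher and 0.153% lower). In replicates 2 and 3 alone 48 of the 109 tested there were higher at 6 h and 17 lower, but 12.6% of all tested genes were called higher in that fit and 12.5% lower. The 12 were among the 48. HERPUD1 stood at 1039, 962 and 1121 CPM at 6 h, 1.91 ± 0.23 above 2 h, and DNAJB9 at 389, 296 and 386 CPM, 3.06 ± 0.23 above. TRIB3 reached 804, 718 and 780.3 CPM (3.31 ± 0.34 above 2 h), and HSPA5 6892, 12116 and 14698 CPM (2.58 ± 0.49). CHAC1 (60.3, 60.7 and 71.3 CPM at 6 h, 0.13 ± 0.50) and MIR616 (5.19, 4.81 and 4.25 CPM, -0.29 ± 0.28) were not called between the times. EGR2 and KLF10 measured 14.2, 20.2 and 11.4 CPM and 64.3, 67.1 and 78.8 CPM at 6 h. Against untreated cells these levels differed by 0.67 ± 0.57 (EGR2) and 0.09 ± 0.45 (KLF10). The differences of EGR2 and KLF10 from 2 h, -2.28 ± 0.60 and -1.88 ± 0.47, did not pass (edgeR adjusted p = 0.142 and 0.122). Both were lower at 6 h than at 2 h in replicates 2 and 3 alone (-2.70 and -2.11, edgeR adjusted p = 0.00762 and 0.00362). EGR1 (-2.73), BHLHE40 (-1.39), ATF3 (-1.36) and DNAJB1 (-1.15) were among the others that were lower at 6 h in that fit. PLCXD3 was higher at 6 h than at 2 h by 3.19 ± 0.36, at 1.17, 1.79 and 2.41 CPM.

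**Figure D4:**
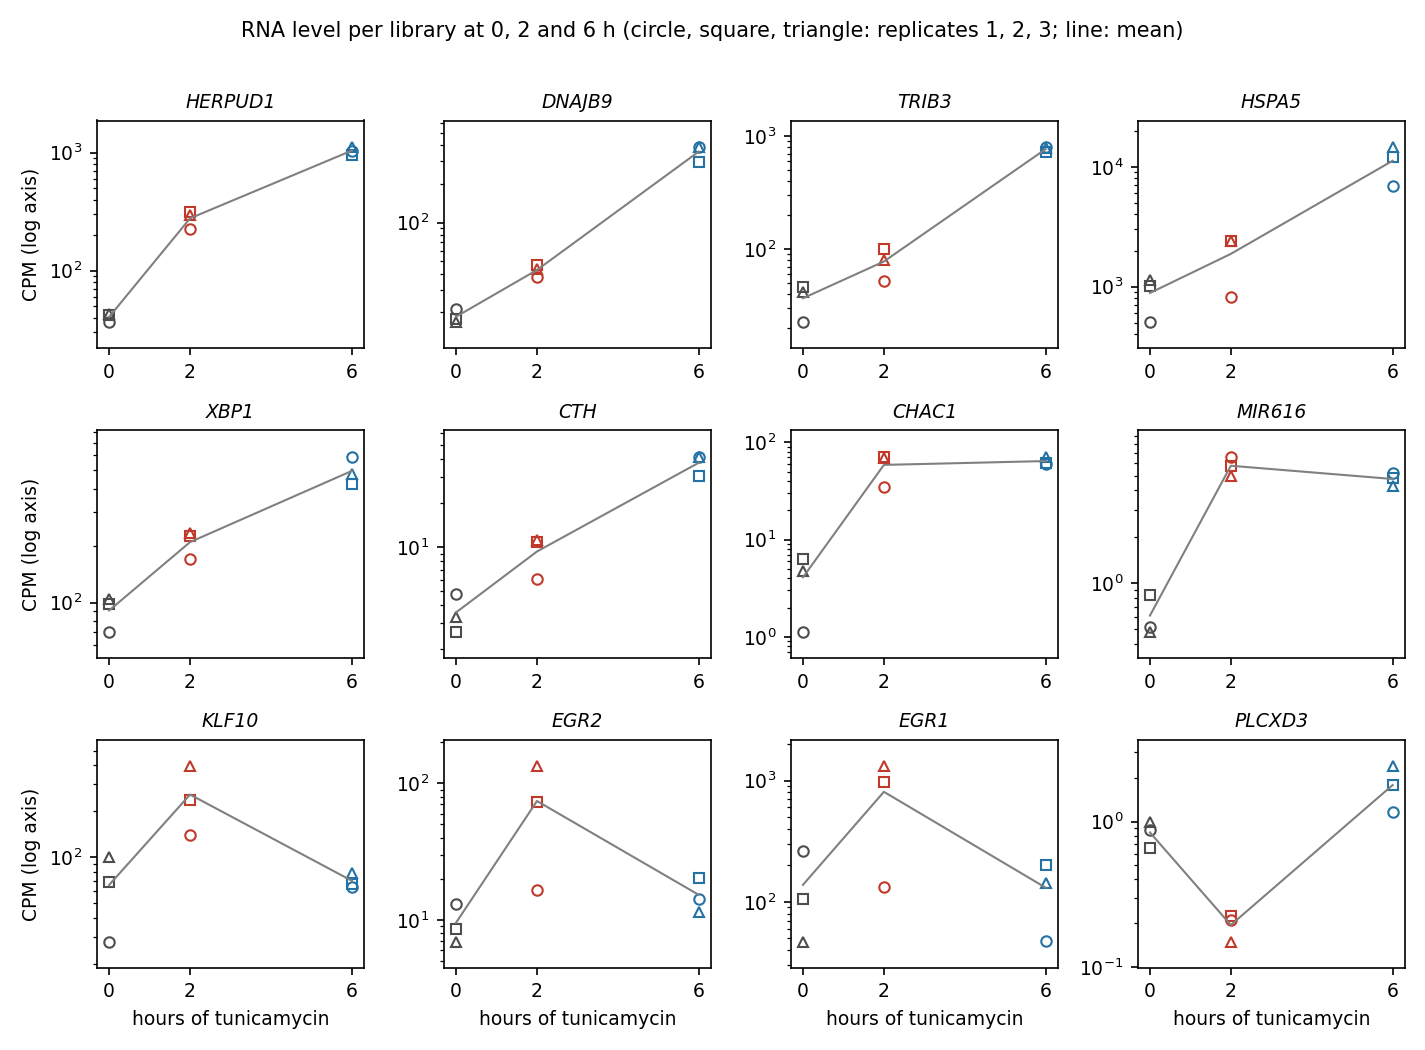
CPM (log axis) per library at 0, 2 and 6 h of tunicamycin for 12 genes, with symbols for replicates and a line through the means of 3. DNAJB9, TRIB3 and HSPA5 had their highest levels at 6 h, CHAC1 and MIR616 were not called between 2 and 6 h, and EGR2, EGR1 and KLF10 had their highest mean at 2 h.

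Thapsigargin, which blocks the calcium pump SERCA of the ER, had 1 library at 2 h, assumed to vary like the other groups and without a replicate check. Of the 121 genes DNAJB9 differed from tunicamycin at 2 h, with 199 CPM (2.22 ± 0.28 higher, edgeR adjusted p = 0.0368; 0.0267% of tested genes were called higher and 0.0% lower). The call was lost by library size alone, with DESeq2 size factors, at a minimum count of 50, with replicate number as a term, and in 5 of the 6 fits that left out 1 library. Without untreated replicate 1 it passed. The thapsigargin library is numbered replicate 1, and the part of its low mitochondrial share in this difference was not tested. The thapsigargin library held 788 CPM of HERPUD1, 380.0 CPM of DDIT3 and 87.5 CPM of CHAC1.

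Ribosome footprints of the same conditions are given for comparison, as CPM of each footprint library (4.39 to 29.18 M counts) and with no test. HERPUD1 had 62.3, 68.5 and 51.1 CPM untreated and 179, 119.8 and 162 CPM after 2 h. CHAC1 had 1.30, 25.4 and 12.5 against 62.2, 58.2 and 111 CPM, and DDIT3 11.1, 31.3 and 15.7 against 127, 43.3 and 43.8 CPM. The groups did not overlap in these 3 genes, nor in HSPA5 (472, 579 and 640.0 against 815, 772 and 1111 CPM). The footprints of XBP1, ATF4 and SESN2 overlapped between groups. EGR1 footprints overlapped too, at 1057, 294 and 158 against 799.6, 511 and 1766 CPM.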

How the data were processed

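RNA-Seq of total RNA was used from 11 libraries, of which 6 are compared here. The deposited values are whole-number counts per Ensembl gene (58278 entries, 886 without a symbol in the name table used). STAR 2.5.4b, HTSeq and DESeq2, and a GRCh38 build, are listed in the submitters' processing notes; no source used here states their roles, the annotation release or the strand setting. CPM rest on 101.4 to 138.2 M counts per library, and intervals are not given because spread between libraries exceeds counting error.

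One edgeR 4.0.16 quasi-likelihood model (R 4.3.3, limma 3.58.1) was fitted to all 11 RNA-Seq libraries by group, after filterByExpr (minimum count 10) and TMM scaling, with Benjamini-Hochberg adjustment over 41130 genes; SE is the fold change over the root of F. Scripts were tested on simulated data. Alternatives were DESeq2 1.42.0 on the same counts, other scalings and filters (minimum count 50 or none), fewer libraries, and a replicate term. Footprint counts were only divided by their library totals. Promoter and miRNA sequences are from RefSeq (GRCh38.p14); 35116 windows cover 27305 symbols, and the ERSE-II motif was added to the search later.

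Genes were named by rule: all called genes, the 12 highest and 8 lowest fold changes (mean of at least 50 counts, unadjusted p under 0.05, no overlap), 12 UPR and control genes, the 3 smallest p-values of each list, and the 10 highest and 10 lowest called both in replicates 2 and 3 alone and without untreated replicate 1 with a replicate term. This gave 121 genes; further list members were named because replicates 2 and 3 called them or after their values were seen. The members and the 25 pathway and 5 marker lists (594 entries, 593 tested) were chosen with earlier results of these data known. Some genes that the rule or the lists hold are not reported here.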

Additional observations from a re-analysis of the deposited data

Results flagged for a closer look

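For 12 of the genes named at 2 h, the difference between 6 h and 2 h of tunicamycin passed the direct test (edgeR, adjusted over all genes). All 12 were higher at 6 h in log2 terms. TRIB3 differed by 3.31, DNAJB9 by 3.06, HSPA5 by 2.58 (adjusted p = 0.0472), CTH by 2.02, HERPUD1 by 1.91, MANF, an ER stress protein, by 1.50, and EIF2AK3 by 1.43. SEC23B, a COPII coat subunit, differed by 1.66, SELENOK, an ERAD selenoprotein, by 1.58, and PGM3, an enzyme of UDP-GlcNAc synthesis, by 1.85. PLCXD3 differed by 3.19 and was below its untreated level at 2 h. TEK, an endothelial receptor under 1 CPM in all 6 compared libraries, differed by 1.56.

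DNAJB9 was also higher with thapsigargin than with tunicamycin at 2 h, by 2.22 (edgeR adjusted p = 0.0368), which rests on 1 thapsigargin library, numbered replicate 1. The call was lost by library size alone, with DESeq2 size factors, at a minimum count of 50, with replicate number as a term, and in 5 of the 6 fits that left out 1 library.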

How the results depend on the processing

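Calls depended on the libraries used. Genes called higher at 2 h numbered 4, and 50 by DESeq2, 2 with the 6 compared libraries alone, 769 in replicates 2 and 3 alone, and 4 to 7 when 1 library was left out (7 without tunicamycin replicate 1). Genes called lower numbered 0, and 17 by DESeq2 and 500 in replicates 2 and 3 alone. HERPUD1 and ENSG00000261114 were called under all 16 alternatives (log2 2.60 to 2.91 and 3.35 to 3.67), ENSG00000261270 and MIR616 under 15, with adjusted p = 0.0575 and 0.114 in the edgeR fit of the 6 compared libraries alone. Scaling by library size alone moved the median of all genes from -0.17 to -0.37 and changed the sign of 4 of 30 list medians. The sign changed for 10 in replicates 2 and 3 alone, 10 with a replicate block without untreated replicate 1, and 8 without untreated replicate 1.

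Samples with the same replicate number correlated at 0.172, 0.0757 and 0.238 in their deviations. Pairs with different numbers correlated at -0.215 to 0.0617, below each same-number pair. A correlation over 0.1 had been required of every same-number pair, so the numbers were not taken as pairs in the main fit. These values do not show that the libraries were unpaired. The biological coefficient of variation was 0.312 with a replicate block and 0.506 without. With a replicate block 8 genes were called higher, and 500 higher and 291 lower with a replicate block without untreated replicate 1. The same blocks gave 25 and 71 of the 121 genes for 6 h against 2 h, and 0 and 33 for thapsigargin against tunicamycin. Over all tested genes these fits called 2.73% and 33.1%, and 0.0316% and 13%.

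The 12 genes called for 6 h against 2 h became 37 by DESeq2, 19 at a minimum count of 50, 19 without thapsigargin libraries, 65 in replicates 2 and 3 alone, and 2 to 34 when 1 library was left out (34 without untreated replicate 1, 4 without tunicamycin replicate 2, 2 without tunicamycin replicate 3). Over all tested genes the share called was 0.742%, and 6.14% by DESeq2, 1.71% at the minimum of 50, 1.45% without thapsigargin, 25.1% in replicates 2 and 3 alone, and 0.056% to 4.79% when 1 library was left out. The 1 gene called for thapsigargin against tunicamycin became 5 by DESeq2, 0 by library size alone, 0 with DESeq2 size factors, 0 at a minimum count of 50, and 0 to 2 when 1 library was left out (2 without untreated replicate 1). Over all tested genes the share was 0.0267%, 0.991% by DESeq2, 0.0% by the next 3, and 0.0% to 0.103% when 1 library was left out.

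Some genes not called over all libraries changed sign; the cause was not tested. By library size alone ALG12 stood at -0.017, and without a filter S100B at 0.0039. With a replicate block the signs turned for BCL2L1 (0.10), CCND1 (0.17), CD44 (0.075), INHBE (0.17), OLIG1 (0.29) and S100B (0.064). With a replicate block without untreated replicate 1 they turned for INHBE (0.99), OLIG1 (2.64), S100B (0.28) and VIM (-0.17), and in replicates 2 and 3 alone for INHBE (1.21), OLIG1 (2.64), S100B (0.38) and VIM (-0.24). When 1 library was left out BCL2L1 ranged from -0.57 to 0.20, CCND1 from -0.63 to 0.20, CD44 from -0.44 to 0.34, INHBE from -0.50 to 1.08, OLIG1 from -0.78 to 2.24, S100B from -0.22 to 0.39, TRAF2 from -0.49 to 0.10 and VIM from -0.20 to 0.47, each with an end at the fit without untreated replicate 1.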
